A study of Mus musculus with 9 samples.

Results

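The replication-dependent histone genes are the clustered genes that supply a dividing cell with new linker histone (H1) and new core histones (H2A, H2B, H3 and H4) while it copies its DNA. They were taken as every gene of the count table whose symbol begins with Hist1h, Hist2h, Hist3h or Hist4h, which gave 34 of 15824 genes, comprising 5 H1, 5 H2A, 8 H2B, 7 H3 and 9 H4 genes. RNA depleted of ribosomal RNA had been sequenced from cardiomyocytes of CD-1 mice at postnatal day 1 (P1), day 14 (P14) and day 56 (P56), with 3 libraries per age that the design text calls biological triplicates. Each library pooled 12 hearts at P1 and 6 to 7 hearts at P14 and at P56, and no transgene, operation or drug is named for any age so far as the sample titles and characteristics tell. The protocols attached to the labels describe both Percoll isolation of whole myocytes, in part from mice that had undergone surgery, and sorting of nuclei stained for the centriolar satellite protein Pcm1, and do not settle which was used for these libraries. The reference annotation used here (GENCODE M21, GRCm38) holds 70 genes of this naming pattern, 67 of them protein-coding. One of the 34 measured genes, Hist1h2al, is annotated there as a processed pseudogene.

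In mammals the clustered histone genes are transcribed mainly in S phase. Their messages normally lack a poly(A) tail and end just behind a conserved stem-loop in the 3′ untranslated region (UTR), which the stem-loop binding protein Slbp holds and near which a complex with the U7 small nuclear RNA cuts. In differentiated cells, some of these genes also give longer, polyadenylated transcripts that run past the stem-loop. Mouse cardiomyocytes largely leave the cell cycle in the first weeks after birth, and non-dividing cells exchange nucleosomes mostly with replacement histones encoded outside the clusters. Libraries made after ribosomal depletion can hold transcripts with and without a poly(A) tail.

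The libraries held 49190887 to 58538025 counts at P1, while those of P14 held 36619799 to 38878181 and those of P56 held 45866453 to 49535917. The defining markers of cardiomyocytes (8 of 8 measured, among them Myh6, Tnnt2 and Ryr2) summed to 50700 to 60700 CPM (counts scaled to library size) in the P1 libraries, 59700 to 91800 CPM in those of P14 and 54800 to 78400 CPM in those of P56. The 41 measured markers of fibroblasts, endothelial cells, leukocytes, smooth muscle and pericytes, and epicardium summed to 444 to 660 CPM in P1 libraries, 667 to 1710 CPM in P14 libraries and 160 to 312 CPM in P56 libraries, and no marker was at 0 in all libraries of an age. These markers were therefore highest at P14, and their values are set beside the results they move with. In bulk libraries, fewer cells of a type and less RNA per cell cannot be told apart. All 34 histone genes passed the filter on low counts. Their mean count was under 10 per library for 18 genes at P14 and for 18 genes at P56, but for none at P1. The deposited table holds only genes with a mean count of at least 10 over the 9 libraries. Many histone genes are therefore in it only through their P1 counts. Examples are Hist1h3b with 96 counts at P1, 3 at P14 and 0 at P56, Hist1h4k with 109, 6 and 2, and Hist1h4a with 115, 12 and 6.

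Transcripts of the histone genes were at their highest total at P1 and fell sharply by P14. Their summed level was 59.6, 54.7 and 69.4 CPM in the P1 libraries, 25.5, 24.4 and 19.4 CPM in the P14 libraries and 31.9, 31.6 and 34.3 CPM in the P56 libraries. The 3 ages did not overlap, and the P56 libraries stood above the P14 libraries. Counts grow with transcript length, so these sums and the shares below weigh long transcripts more. As a share of all counts the family made up 0.0067 ± 0.000981% at P1, 0.00231 ± 0.000463% at P14 and 0.00301 ± 0.000146% at P56 (SD, n = 3 libraries each). The rise of the CPM sum after P14, which was not scaled for transcript length, came with a change in make-up. Without the 3 H2B genes named below the sum did not rise, with means of 14.2 CPM at P14 and 11.6 CPM at P56. H2B transcripts held 28.1, 29.5 and 24.8% of the summed histone CPM at P1, 36.2, 39.2 and 46.9% at P14 and 57.9, 70.0 and 68.7% at P56. H1 transcripts held 38.0, 33.6 and 35.8% at P1, 28.6, 27.2 and 22.5% at P14 and 18.1, 12.3 and 10.6% at P56. H3 and H4 shares were 9.87 ± 0.845% and 19.4 ± 1.67% at P1, 5.22 ± 0.685% and 15.1 ± 1.95% at P14, and 2.57 ± 0.492% and 12.3 ± 2.88% at P56.

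**Figure D1:**
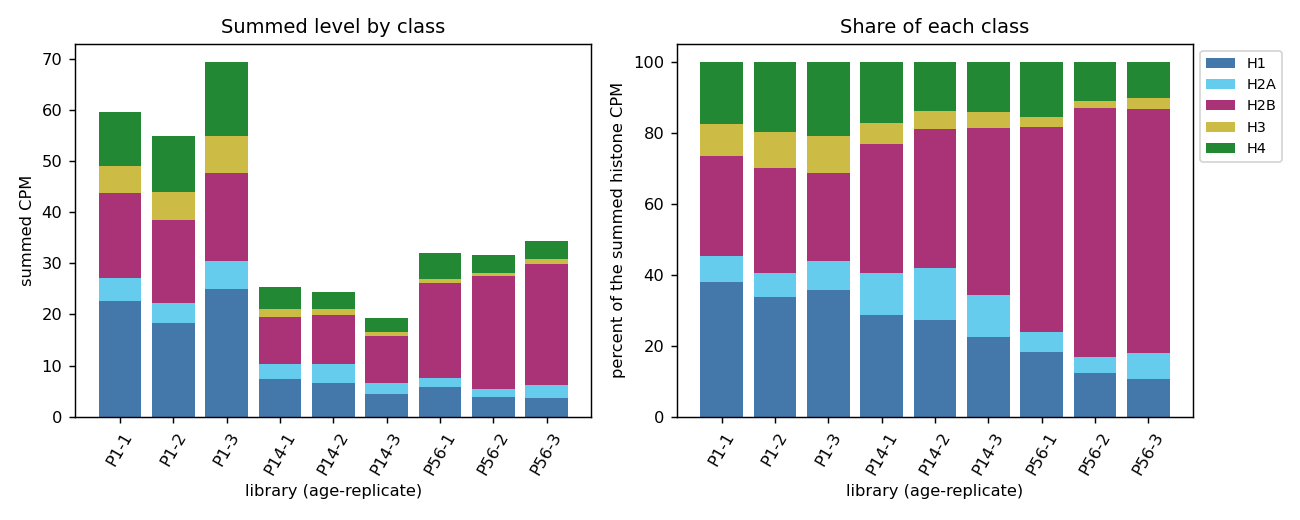
Summed histone transcript level by class (left, CPM) and the share of each class in that sum (right, percent) in each of the 9 libraries, named by age and replicate. The stacked bars are lowest at P14, and the H2B share lies between 24.8 and 29.5% at P1 and between 57.9 and 70.0% at P56.

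Just 3 H2B genes held most of the summed histone CPM at P56, a measure that weighs long transcripts more. Hist1h2be, Hist1h2bc and Hist2h2be together held 23.4, 25.0 and 19.1% of the summed histone CPM at P1, 34.0, 37.1 and 46.1% at P14 and 57.0, 68.4 and 67.9% at P56. The other 31 genes summed to 45.6, 41.1 and 56.2 CPM at P1, 16.8, 15.4 and 10.5 CPM at P14 and 13.7, 9.99 and 11.0 CPM at P56. These 3 genes were singled out after their values were seen, so the shares are a description. Per kilobase of annotated exon, Hist1h2bc (4.14 CPM per kb) and Hist1h2be (3.07) were the highest of the family at P56. Hist2h2be (0.995) stood below other members by that measure, such as Hist1h4h (2.04) and Hist2h2ac (2.00).

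At P14 against P1, 30 of the 34 histone genes fell and none rose (quasi-likelihood test of edgeR, p-values adjusted over 15817 genes by Benjamini and Hochberg, threshold 0.05). Over all genes tested, 27.5% were called down and 28.4% up in this comparison. For the many members kept in the table only through their P1 counts, a fall from P1 was in part fixed by that earlier removal. The count of falls and the median below are in part shaped by it. This limit holds for P56 against P1 too, and for the comparison of the change after P14 with the change before it. No histone gene was higher at an unadjusted p under 0.05 either, nor by DESeq2, which counted 28 falls and 0 rises. The median fitted log2 change of the 34 genes was −2.01, against 0.00 for all genes. The P14 libraries did not overlap the P1 libraries for 33 of the 34 genes, and for 63.9% of all genes tested, counted in either direction. All 5 H1, 8 H2B, 7 H3 and 9 H4 genes fell, but only 1 of the 5 H2A genes did. The 4 genes past no threshold were all H2A genes, and they were Hist2h2ab, Hist2h2ac, Hist1h2af and the pseudogene Hist1h2al. The markers of other cell types moved the opposite way here, with 30 of 41 higher and 4 lower at P14, and with their mean log2 CPM as a term in the fit 27 histone genes were still called down.

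At P56 against P14 the family split, with 10 genes lower, 4 higher and 20 past no threshold. Over all genes tested, 28.5% were called down and 27.5% up, so the share of histone genes that fell (10 of 34) was near the background. The median fitted log2 change was −0.46, against −0.02 for all genes. The P56 libraries did not overlap the P14 libraries for 15 of the 34 genes, and for 59.5% of all genes tested. The 10 that fell were 4 H1 genes (Hist1h1a, Hist1h1b, Hist1h1d and Hist1h1e), 3 H2A genes (Hist1h2ak, Hist2h2ab and Hist1h2al), 2 H3 genes (Hist1h3c and Hist1h3i) and the H4 gene Hist1h4f. The 4 that rose were the H2B genes Hist1h2be, Hist1h2bc and Hist2h2be and the H4 gene Hist1h4i. No H2B gene was called down, at an unadjusted p under 0.05 or by DESeq2 either (0 of 8 in each). Markers of other cell types fell over the same interval, 29 of 41 lower by the same test, and with their score as a term the median of the histone genes was 0.43 and 0 of the 10 falls were called, 0 also at an unadjusted p under 0.05. DESeq2 without the score called 9 falls and 3 rises. The count of rises was 2 without P14 replicate 2 and 2 without P56 replicate 2.

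Over the whole span, P56 against P1, 27 genes fell and 2 rose, where 31.7% of all genes were called down and 30.9% up. The median fitted log2 change was −2.30, and it stays at −2.30 with Hist1h3b, which had no count at P56, set to its bound. The P56 libraries did not overlap the P1 libraries for 29 of the 34 genes, and for 72.2% of all genes tested, counted in either direction. Here the markers of other cell types were more evenly split, with 12 of 41 lower and 8 higher, and the score left the counts at 27 falls and 2 rises. The fit over all ages called 32 of 34 histone genes as differing, against 78.0% of all genes, and the remaining 2 were Hist2h2ac and Hist2h4.

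The change over the later interval was set against that over the earlier one in the same fit. It was more positive for 14 of the 34 genes and more negative for none, at an unadjusted p under 0.05 also for none and by DESeq2 for 0, where 24.1% of all genes were called up and 26.0% down in this test. The 14 genes were 6 H4, 4 H2B, 2 H1 and 2 H3 genes. Some of them are in the table only through their P1 counts, such as Hist1h2bg with 92 counts at P1, 7 at P14 and 14 at P56. For such genes a more positive later change was in part fixed by the earlier removal of weakly counted genes. The median difference was 1.38 on the log2 scale. The number called up was 9 without P1 replicate 3, 7 without P14 replicate 2 and 7 without P14 replicate 3, and in the last of these 2 genes were called down. Of the 8 genes that fell at both steps, 1 differed between them, Hist1h1e, whose later fall was the smaller (1.26 ± 0.42, adjusted p = 0.0315). Hist1h1a, not called in this test, fell by 1.83 ± 0.37 at P14 against P1 and by 1.85 ± 0.50 at P56 against P14 on the log2 scale (SE).

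**Figure D2:**
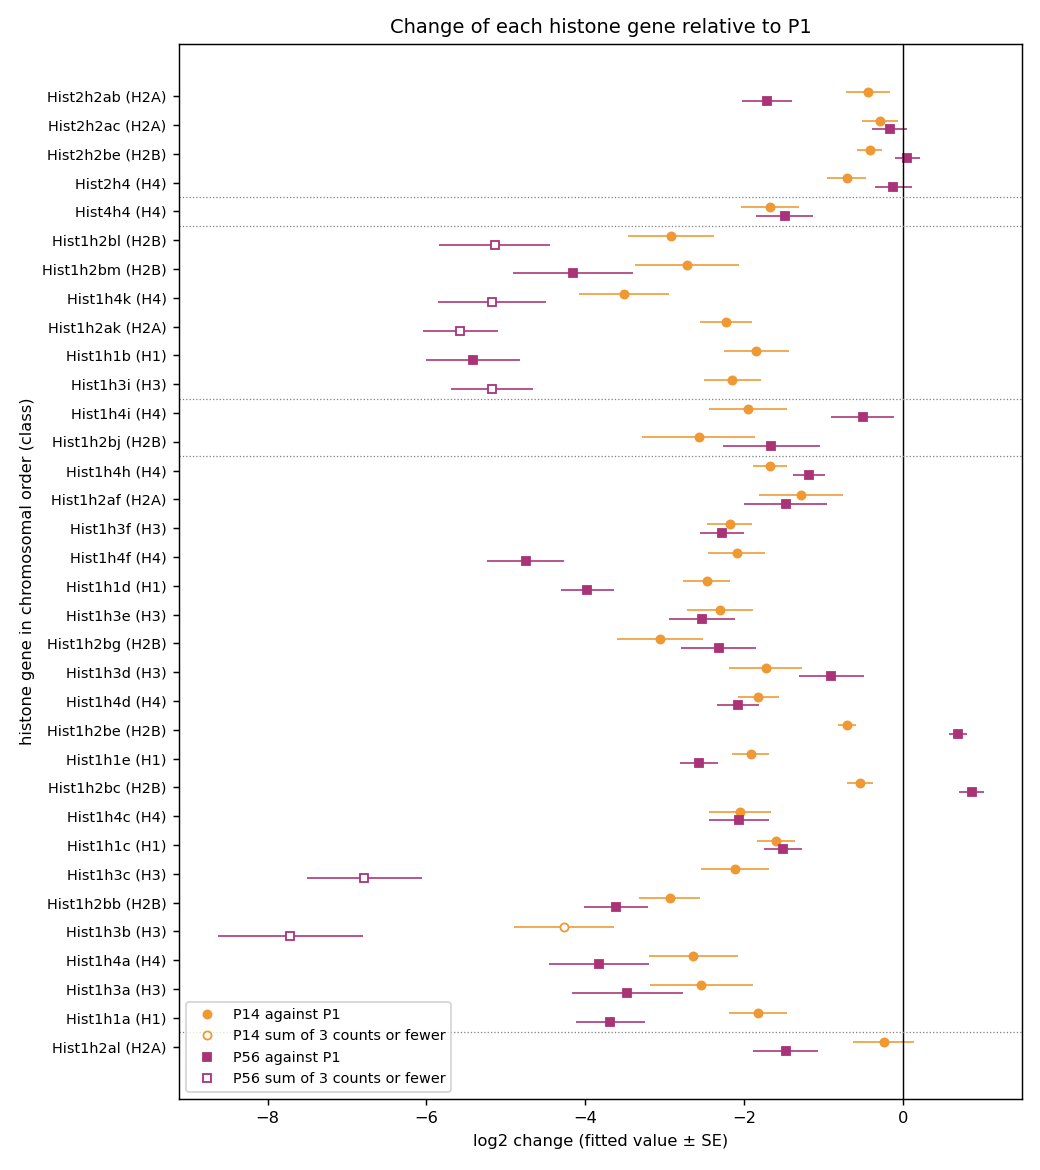
Fitted log2 change ± SE of each histone gene at P14 against P1 (orange circles) and at P56 against P1 (purple squares), in order along chromosomes 3, 6 and 13, with dotted lines between clusters and parts of clusters. Open symbols mark genes with 3 counts or fewer in all libraries of the later age, whose fitted values depend on the prior count. All orange circles lie left of 0, while the purple squares spread from far left, among them the 6 genes from Hist1h2bl to Hist1h3i, to right of 0 for Hist1h2be and Hist1h2bc.

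Among the linker histones, which bind DNA where it enters and leaves the nucleosome, Hist1h1c had the highest level per kilobase of annotated exon (3.10 CPM per kb over all libraries). Hist1h1c (ENSMUSG00000036181) had 9.06, 6.96 and 9.89 CPM at P1, 3.35, 2.89 and 2.29 CPM at P14 and 4.12, 2.73 and 2.21 CPM at P56. It fell by P14 and then held its level, with P14 and P56 libraries overlapping. The log2 change was −1.60 ± 0.24 at P14 against P1 (SE, adjusted p = 0.000369) and 0.08 ± 0.25 at P56 against P14 (adjusted p = 0.787). Hist1h1b (ENSMUSG00000058773, chr13:21779883-21780625, minus strand) had 2.04, 1.63 and 2.47 CPM at P1, 0.767, 0.676 and 0.248 CPM at P14 and 0.0453, 0.0918 and 0 CPM at P56. The 3 ages did not overlap for this gene, and it fell at both steps, by 1.85 ± 0.41 (adjusted p = 0.00379) and by 3.57 ± 0.67 (adjusted p = 0.00149) on the log2 scale. The mean log2 CPM of the other-cell markers (their score) was 3.85, 3.37 and 2.71 in P14 replicates 1, 2 and 3, and so followed the same order as Hist1h1b in those libraries. Hist1h1d had 3.64, 3.37 and 4.12 CPM at P1, 0.715, 0.946 and 0.331 CPM at P14 and 0.204, 0.207 and 0.290 CPM at P56, with no overlap between ages. Hist1h1e had a log2 change of −1.92 ± 0.23 at P14 against P1, and its smaller fall after P14 (−0.65 ± 0.25, adjusted p = 0.0484) came with overlapping libraries. That second call was lost with the marker score and without any 1 of 7 libraries, the exceptions being P14 replicate 3 and P56 replicate 1.

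The H2A genes, whose products pair with H2B in the nucleosome, had the smallest median change by P14 (−0.44, against −2.65 to −1.85 in the other classes). Class and cluster overlap here, since the 4 Hist2 genes, of H2A, H2B and H4, had a median of −0.43 at this step. Hist1h2ak and Hist1h2af stood at −2.23 and −1.29. Hist2h2ac had 1.19, 1.04 and 1.28 CPM at P1, 0.894, 1.00 and 0.966 CPM at P14 and 1.27, 0.735 and 1.11 CPM at P56. None of its age comparisons passed the threshold, and its P56 libraries overlapped both other ages. Hist2h2ab had 0.285, 0.379 and 0.396 CPM at P1, 0.256, 0.270 and 0.248 CPM at P14 and 0.0906, 0.0918 and 0.134 CPM at P56. It fell after P14, with a log2 change of −1.27 ± 0.35 at P56 against P14 (adjusted p = 0.0108). Hist1h2al, the annotated pseudogene, had the highest H2A level per kilobase over all libraries (3.41 CPM per kb), though at P56 Hist2h2ac stood higher, at 2.00 against 1.66 CPM per kb. It had 1.34, 1.21 and 2.18 CPM at P1, 1.46, 1.81 and 0.717 CPM at P14 and 0.340, 0.528 and 0.824 CPM at P56. Its P14 libraries overlapped those of P1 and those of P56, and 32.4% of its 50-base windows occur in no other annotated transcript. Hist1h2af, with 0.727, 0.436 and 0.666 CPM at P1, 0.230, 0.297 and 0.221 CPM at P14 and 0.0906, 0.0918 and 0.468 CPM at P56, stood at −1.29 ± 0.53 at P14 against P1 (adjusted p = 0.0606). Hist1h2ak was the H2A gene that fell at both steps. It had 0.822, 0.701 and 1.01 CPM at P1, 0.204, 0.189 and 0.138 CPM at P14 and 0.0226, 0.0230 and 0 CPM at P56, with no overlap between ages. Its counts summed to 145 at P1, 20 at P14 and 2 at P56, and it was 56.0-fold lower at P56 than at P1 (95% counting interval 15.2 to 467) and 11.8-fold lower at P56 than at P14 (2.87 to 104), intervals that cover counting error only.

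The H2B class had the lowest median change by P14 and also held the 2 genes called higher at P56 than at P1. Hist1h2be (ENSMUSG00000047246, chr13:23583670-23621124, minus strand) had 8.73, 8.02 and 8.68 CPM at P1, 5.24, 5.27 and 5.10 CPM at P14 and 11.6, 13.9 and 15.4 CPM at P56. No age overlapped another, and every P56 library stood above every P1 library. Its log2 change was −0.70 ± 0.11 at P14 against P1 (adjusted p = 0.000558), 1.39 ± 0.11 at P56 against P14 (adjusted p = 1.18e-05) and 0.69 ± 0.11 at P56 against P1 (adjusted p = 0.000352), and the 2 intervals differed by 2.09 ± 0.20 (adjusted p = 5.64e-05). Hist1h2bc (ENSMUSG00000018102, chr13:23684199-23692908, plus strand) had the highest H2B level per kilobase, with 2.28 CPM per kb at P1, 1.56 at P14 and 4.14 at P56. It had 2.62, 3.18 and 2.11 CPM at P1, 1.71, 1.92 and 1.79 CPM at P14 and 4.44, 5.01 and 4.92 CPM at P56. As in Hist1h2be the lowest libraries were those of P14 and the highest those of P56, with log2 changes of −0.54 ± 0.17 at P14 against P1 (adjusted p = 0.0186), 1.40 ± 0.17 at P56 against P14 (adjusted p = 9.72e-05) and 0.86 ± 0.16 at P56 against P1 (adjusted p = 0.000888). Once the marker score was fitted too, the rises of Hist1h2be after P14 (1.12) and against P1 (0.61) stayed past the threshold, as did that of Hist1h2bc against P1 (0.74), while the fall of Hist1h2bc by P14 (−0.21) and its rise after P14 (0.95) did not. The fall of Hist1h2bc by P14 was also lost without P1 replicate 2.

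Hist2h2be (ENSMUSG00000068854, chr3:96221119-96223738, plus strand) moved in the same order with a smaller amplitude. It had 2.61, 2.48 and 2.45 CPM at P1, 1.71, 1.87 and 2.04 CPM at P14 and 2.13, 2.71 and 2.99 CPM at P56. P56 libraries overlapped those of P1, and the log2 change was 0.48 ± 0.16 at P56 against P14 (adjusted p = 0.0282). That rise was lost without P14 replicate 1 or 2 and without P56 replicate 2 or 3, and its sign turned with the marker score (−0.12). Its fall by P14 (−0.43 ± 0.16, adjusted p = 0.0439) was lost in 9 of 14 alternatives, among them DESeq2, the marker score and the fits without P1 replicate 1, 2 or 3, P14 replicate 1 or 2, or P56 replicate 2. The other 5 H2B genes were low at both later ages. Hist1h2bb had 0.759, 0.663 and 0.883 CPM at P1, 0.0767, 0.108 and 0.110 CPM at P14 and 0.113, 0.0459 and 0.0223 CPM at P56, a log2 change of −2.94 ± 0.39 at P14 against P1 (adjusted p = 0.00016). Hist1h2bg had 0.395, 0.360 and 0.865 CPM at P1, 0.102, 0.0270 and 0.0552 CPM at P14 and 0.113, 0.115 and 0.0891 CPM at P56. The later 2 ages overlapped for both genes, and both lay below every P1 library.

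**Figure D3:**
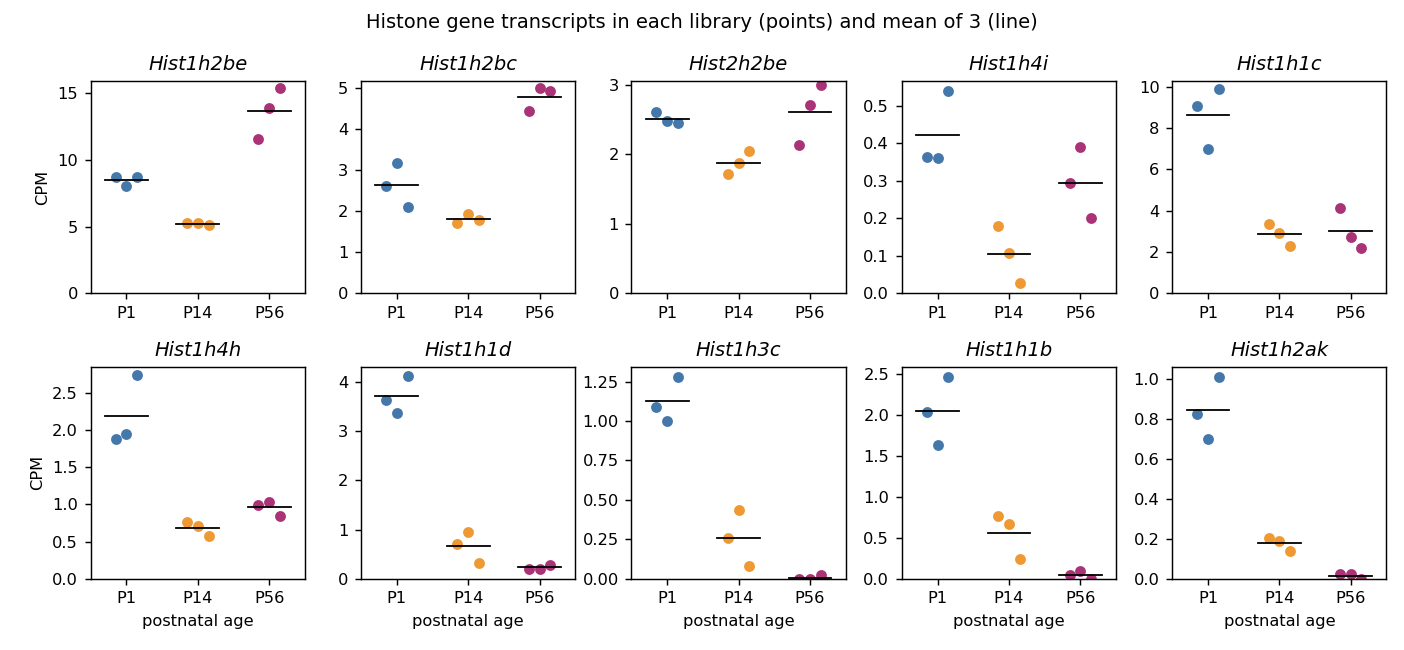
Level (CPM, linear axis from 0, its own scale in each panel) of 10 histone genes in the 9 libraries by postnatal age, with points for libraries and lines for the mean of 3. Hist1h2be and Hist1h2bc dip at P14 and end above P1, Hist1h1c and Hist1h4h stay low after P14, and Hist1h3c, Hist1h1b and Hist1h2ak approach 0 at P56.

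The genes of histone H3, which with H4 forms the core tetramer of the nucleosome, fell at P14 without exception, and most stayed down. Hist1h3e, highest per kilobase in the class (1.01 CPM per kb), had 1.72, 1.59 and 2.23 CPM at P1, 0.511, 0.324 and 0.276 CPM at P14 and 0.476, 0.0918 and 0.379 CPM at P56. Its later 2 ages overlapped, with a log2 change of −2.30 ± 0.42 at P14 against P1 (adjusted p = 0.00113) and −0.23 ± 0.49 at P56 against P14 (adjusted p = 0.704). Hist1h3c (ENSMUSG00000069310, chr13:23744973-23745602, minus strand) was nearly lost from the P56 libraries. It had 1.09, 1.00 and 1.28 CPM at P1, 0.256, 0.433 and 0.0828 CPM at P14 and 0, 0 and 0.0223 CPM at P56. Its counts summed to 193 at P1, 29 at P14 and 1 at P56. It was 34.2-fold lower at P56 than at P14 (95% counting interval 5.67 to 1400, adjusted p = 0.00198 in the fit) and 149-fold lower than at P1 (26.5 to 5920). Hist1h3b had 0.411, 0.531 and 0.757 CPM at P1 and 0.0511, 0 and 0.0276 CPM at P14, and was at 0 in all P56 libraries. At P56 it was at least 24.7-fold lower than at P1, taking 3 counts over the 3 P56 libraries as the limit that a count of 0 allows, while the 95% counting interval used for the other genes begins at 19.7-fold. At P14 its 3 counts against 96 at P1 gave 21.0-fold lower (6.96 to 103). Hist1h3i had 109 counts at P1, 16 at P14 and 2 at P56, with no overlap between ages. Its level was 0.538, 0.682 and 0.703 CPM at P1, 0.204, 0.108 and 0.110 CPM at P14 and 0, 0.0230 and 0.0223 CPM at P56. It was 9.44-fold lower at P56 than at P14 (2.22 to 84.6). Hist1h3d was the exception in the class, with 0.113, 0.367 and 0.423 CPM at P56 against 0.474, 0.550 and 0.684 CPM at P1, a difference that missed the threshold (−0.91 ± 0.41, adjusted p = 0.0782).

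All 9 genes of histone H4, a highly conserved core histone, fell by P14, and they parted afterwards. Hist1h4h, highest per kilobase in the class (2.72 CPM per kb), had 1.88, 1.95 and 2.74 CPM at P1, 0.767, 0.703 and 0.579 CPM at P14 and 0.997, 1.03 and 0.847 CPM at P56. Its P56 libraries stood between those of the other ages, and the later interval differed from the earlier one by 2.16 ± 0.40 (adjusted p = 0.00166), while the P56 against P14 change itself was not past the threshold (0.49 ± 0.23, adjusted p = 0.0937). Hist1h4i (ENSMUSG00000060639, chr13:22040636-22041362, minus strand) had 0.364, 0.360 and 0.540 CPM at P1, 0.179, 0.108 and 0.0276 CPM at P14 and 0.294, 0.390 and 0.200 CPM at P56. All its P56 libraries were above those of P14 and they overlapped those of P1. The rise of 1.45 ± 0.52 at P56 against P14 (adjusted p = 0.0381) was lost in 8 of 14 alternatives, among them DESeq2 and the fits without P1 replicate 1 or 2, P14 replicate 2 or 3, or P56 replicate 1 or 2. With each library left out in turn it was 1.02 to 2.07. Hist2h4 had 0.949, 0.948 and 1.12 CPM at P1, 0.741, 0.649 and 0.441 CPM at P14 and 1.13, 0.850 and 0.780 CPM at P56. Its P56 libraries lay on both sides of those of P1, 1 above and 2 below, and its fall by P14 (−0.71 ± 0.25, adjusted p = 0.0317) was lost by DESeq2 and without any 1 of the P1 libraries or without P14 replicate 2 or 3. Hist1h4k had 0.506, 0.644 and 0.775 CPM at P1, 0.0511, 0.108 and 0 CPM at P14 and 0.0226, 0 and 0.0223 CPM at P56. It had 2 counts at P56 against 109 at P1, and was 42.1-fold lower (11.4 to 352). Hist1h4f fell at both steps, with a log2 change of −2.65 ± 0.61 at P56 against P14 (adjusted p = 0.00458).

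The stem-loop sequences are shown because they are the feature that marks these messages. In the annotated transcripts a 16-letter form, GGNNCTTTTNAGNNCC, was searched for downstream of the coding end on the transcript strand. It was found in 22 of the 34 genes, which are 22 of the 26 whose annotated 3′ UTR has at least 40 bases. Searched over whole transcripts, it stood in 22 of the 34 genes too, and in 72 of 21901 protein-coding genes of the annotation (0.329%). It was not found in the annotated tails of Hist1h2bc, Hist2h2be, Hist1h4a and Hist1h1a. It stood in some genes that fell to a few counts, such as Hist1h3c, and in some that rose after P14, such as Hist1h2be. Hist1h2bc and Hist2h2be also rose after P14, with no match in their annotated tails. Other genes that fell to a few counts, such as Hist1h2ak and Hist1h3i, have no annotated 3′ UTR to search. In the following 30-base stretches from GENCODE M21 transcripts the capitals mark the stem-loop, 5′ to 3′.
Hist1h2be: ccaaaGGCTCTTTTCAGAGCCacccaacag
Hist1h4i: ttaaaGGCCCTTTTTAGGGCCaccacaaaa
Hist1h1c: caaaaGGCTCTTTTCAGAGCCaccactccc
Hist1h1d: caaacGGCTCTTTTCAGAGCCacccacaac
Hist1h3c: aaaaaGGCTCTTTTAAGAGCCacctaagat
Hist1h3b: ccaaaGGCTCTTTTCAGAGCCacccacagt
Hist1h4f: tcaaaGGCCCTTTTCAGGGCCacccacttt
Hist1h4h: ccaaaGGCCCTTTTCAGGGCCgcccacatt
Beyond the stem-loop, the annotated transcript goes on for 1861 bases in Hist1h2be, 840 in Hist1h1c, 4884 in Hist1h1d and 330 in Hist1h4i, but for 74 bases in Hist1h3c, 51 in Hist1h3b, 33 in Hist1h4f and 46 in Hist1h4h.

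The length of the annotated 3′ UTR was set beside the change after P14 as a description. Over the 33 protein-coding genes the Spearman correlation across genes between annotated 3′ UTR length and log2 change was 0.346 at P14 against P1, 0.559 at P56 against P14 and 0.542 at P56 against P1. These genes share libraries and are not independent. At P56 against P14 the same correlation was 0.416 with total exon length, 0.248 with the share of unique windows and 0.093 with the P1 count. At P14 against P1 each of these was above that of 3′ UTR length, at 0.388, 0.417 and 0.457 in the same order. At P56 against P1 they were 0.439, 0.318 and 0.217. Of the 16 genes with under 100 annotated bases, 6 fell at P56 against P14 and none rose, with a median fitted change of −1.55. By DESeq2 5 fell and 0 rose, and in the main fit 0 rose at an unadjusted p under 0.05. With the marker score of other cell types in the fit, 0 were called down, 0 also at an unadjusted p under 0.05. That fit called 0 up, but 1 at an unadjusted p under 0.05. Of the 11 genes with 500 bases or more, 2 fell (Hist1h1d and Hist1h1e) and 3 rose (Hist1h2be, Hist1h2bc and Hist2h2be), with a median of 0.19. Against the 28.5% of all genes called down and 27.5% called up in this comparison, the share of rises among the 11 genes was near the background. The limits of 100 and 500 bases were chosen after the data were seen. Several of the shortest tails belong to gene models annotated with no 3′ UTR at all, so the length describes the annotation and not the transcripts in these cells.

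**Figure D4:**
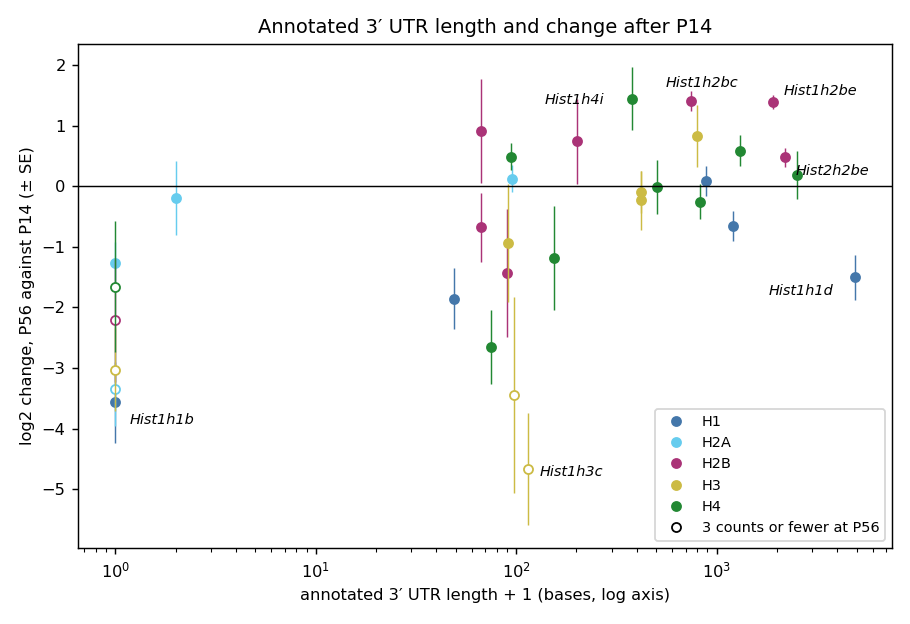
Fitted log2 change at P56 against P14 (± SE) of the 33 protein-coding histone genes against the length of their longest annotated 3′ UTR plus 1 base (log axis), coloured by class, with open symbols for genes with 3 counts or fewer at P56. Hist1h2be, Hist1h2bc and Hist2h2be lie at upper right, Hist1h1d at the far right lies below 0, and the genes without an annotated 3′ UTR stand at the left edge, all below 0.

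Promoters are shown for a gene that ended above its P1 level and for 3 that approached 0. They serve as examples and are not the members with the largest changes throughout. RefSeq promoters of GRCm38.p6 (250 bases before to 50 after the annotated start) matched 28 of the 34 genes. On either strand the CCAAT box, which binds the factor NF-Y, stood in 23 of these 28, and in 37.4% of 32851 promoters of the same length. All 20 matched H1, H2A, H2B and H3 genes held it, against 3 of the 8 H4 genes. The motif TATAAA stood in 17 of 28, against 13.6% of all promoters. Its first 5 letters alone stood in 22 of 28, against 24.9% of all promoters. The octamer ATTTGCAT, which binds Oct-1 in H2B promoters, stood in 5 of 28, against 1.74% of all promoters, namely in 4 of the 6 matched H2B genes (Hist1h2bm, Hist1h2bg, Hist1h2be and Hist1h2bb) and in Hist2h2ac. Of the octamer-holding H2B genes, Hist1h2be rose after P14 and the other 3 did not pass the threshold. Capitals mark these 3 motifs, or their reverse complements, in the following promoters, 5′ to 3′ on the gene's strand; for Hist1h2be the one next to its coding sequence is printed.
Hist1h2be (chr13:23585921-23586220, minus strand): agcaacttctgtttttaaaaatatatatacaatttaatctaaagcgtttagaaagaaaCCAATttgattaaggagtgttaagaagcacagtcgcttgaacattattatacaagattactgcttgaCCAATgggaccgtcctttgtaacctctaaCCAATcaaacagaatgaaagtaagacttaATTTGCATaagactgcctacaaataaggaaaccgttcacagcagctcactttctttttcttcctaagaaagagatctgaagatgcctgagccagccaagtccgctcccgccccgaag
Hist1h3c (chr13:23745472-23745771, minus strand): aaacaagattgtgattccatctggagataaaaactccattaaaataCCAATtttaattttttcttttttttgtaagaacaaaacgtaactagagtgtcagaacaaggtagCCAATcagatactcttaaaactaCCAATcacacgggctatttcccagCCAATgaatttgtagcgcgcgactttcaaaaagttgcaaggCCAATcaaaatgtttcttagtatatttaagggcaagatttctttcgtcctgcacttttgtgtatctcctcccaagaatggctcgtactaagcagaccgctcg
Hist1h1b (chr13:21780576-21780875, minus strand): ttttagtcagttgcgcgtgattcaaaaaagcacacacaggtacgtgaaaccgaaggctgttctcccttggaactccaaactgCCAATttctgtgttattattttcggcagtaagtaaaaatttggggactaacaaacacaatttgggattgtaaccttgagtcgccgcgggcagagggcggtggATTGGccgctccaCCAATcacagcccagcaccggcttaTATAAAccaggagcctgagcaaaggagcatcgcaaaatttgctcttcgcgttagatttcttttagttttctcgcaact
Hist1h4k (chr13:21750504-21750803, minus strand): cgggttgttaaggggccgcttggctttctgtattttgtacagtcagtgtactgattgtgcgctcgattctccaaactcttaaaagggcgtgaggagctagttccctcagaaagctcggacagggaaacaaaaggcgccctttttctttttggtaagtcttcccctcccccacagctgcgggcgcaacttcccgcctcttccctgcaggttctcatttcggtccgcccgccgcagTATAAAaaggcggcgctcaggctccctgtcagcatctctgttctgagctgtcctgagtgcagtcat
The promoter of Hist1h4k holds no CCAAT, and that of Hist1h3c holds it 5 times.

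Along chromosome 13 the genes lie in stretches, and at P56 against P1 the changes within the largest stretch spanned those of the others. The 6 genes between 21715763 and 21783370 (Hist1h2bl, Hist1h2bm, Hist1h4k, Hist1h2ak, Hist1h1b and Hist1h3i, of all 5 classes) all fell by P14 and all stood below P1 at P56, with fitted log2 changes of −5.57 to −4.16 at P56 against P1, values that depend on the prior count for the 4 of them with 2 counts at P56. All 6 but Hist1h2bm are also annotated without a 3′ UTR, so position and tail length are not separate here. Most of the 6 are in the table only through their P1 counts, such as Hist1h4k with 109 counts at P1, 6 at P14 and 2 at P56. Their fall from P1 was in part fixed by the earlier removal of weakly counted genes. Hist1h4i and Hist1h2bj, between 22040636 and 22043676, had a median of −1.09 at P56 against P1. The 20 genes between 23531050 and 23764406 ran from Hist1h3b with no count at P56 to Hist1h2bc at 0.86, with 17 called down and 2 up. On chromosome 3 the 4 Hist2 genes had a median log2 change of −0.15 at P56 against P1 and 1 of the 4 (Hist2h2ab) was called. Hist4h4 on chromosome 6 had 2.51, 2.10 and 2.72 CPM at P1, 1.05, 0.460 and 0.773 CPM at P14 and 1.38, 0.505 and 0.713 CPM at P56. It fell by P14 and its later 2 ages overlapped.

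Near-identical sequence limits how reads can be split among these genes. A median of 57.9% of the 50-base windows of a gene's transcripts occur in no other annotated gene, from 6.0% in Hist1h2af to 100% in Hist2h2be, Hist1h1b and Hist1h1a, and 11 genes have under 50%. The share was 83.7% for Hist1h2be, 69.4% for Hist1h2bc, 53.0% for Hist1h3c, 39.6% for Hist1h3b and 12.4% for Hist1h3i, so values of the last 2 in particular are uncertain. Hist1h2be and Hist1h1e overlap in their annotated exons on the same strand, and how reads in that overlap were counted is not known here. All 5 H2A genes overlap an exon of a gene annotated on the opposite strand, a miRNA model for 4 of them and the antisense gene Gm15444 for Hist2h2ab. The counting is not stated to use strand, so reads of these H2A genes and of their antisense partners cannot be told apart.

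Genes for making and trimming histone messages mostly passed no threshold at each step. Of 19 measured, 6 fell and 2 rose at P14 against P1, 5 fell and 2 rose at P56 against P14, and 8 fell and 2 rose at P56 against P1, with a median log2 change of −0.24 for the last. Over all genes tested, 27.5, 28.5 and 31.7% were called down in these comparisons, and 28.4, 27.5 and 30.9% up. The shares of falls at P14 against P1 and at P56 against P14 were thus near the background. Slbp, which binds the stem-loop, had 11.5 ± 0.486 CPM at P56, against 16.7 ± 0.972 CPM at P1 (SD, n = 3 each), a log2 change of −0.54 ± 0.09 (adjusted p = 0.000514). Npat, the coactivator of histone gene transcription that is driven by cyclin E and Cdk2, stood at 39.8 ± 1.09 CPM at P1, 21.4 ± 2.71 CPM at P14 and 25.5 ± 3.70 CPM at P56. Of the U7 complex proteins, Lsm11 fell by 1.31 on the log2 scale at P56 against P1 and Lsm10 rose by 0.69, to 1.18 ± 0.189 CPM at P56, against 0.731 ± 0.0752 CPM at P1.

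Genes for copying DNA fell with the histone genes at P14 and in part thereafter. All 31 measured DNA replication genes fell at P14 against P1 (median log2 change −1.62), 17 fell and 3 rose at P56 against P14 (−0.43), and 30 fell and 1 rose at P56 against P1 (−2.14). Shares called down over all genes tested were 27.5, 28.5 and 31.7% in these comparisons, and shares called up 28.4, 27.5 and 30.9%. Rrm2, a subunit of ribonucleotide reductase, had 5.07 ± 0.889 CPM at P1, 0.588 ± 0.327 CPM at P14 and 0.136 ± 0.0394 CPM at P56. Gmnn, the inhibitor of replication licensing, was the 1 that rose over the whole span, at 12.2 ± 1.45 CPM at P56 against 6.19 ± 0.122 CPM at P1. Among 12 S-phase cyclins and E2F factors, all 12 fell by P14, and 7 fell and 1 rose after it. The riser was Ccne1, cyclin E1, at 0.815 ± 0.0309 CPM at P56 against 0.250 ± 0.0651 CPM at P14. Of the mitosis genes, 19 of 20 fell at P56 against P14 (median −2.75), with Mki67 at 0.682 ± 0.360 CPM at P56 against 6.94 ± 2.83 CPM at P14 and Top2a at 0.402 ± 0.291 CPM against 3.84 ± 1.29 CPM. Cenpf was the exception and rose. Over this same interval the markers of other cell types fell, as given above.

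The histone chaperones tied to replication fell by P14 in 10 of 11 cases, and 5 fell and 1 rose after it. Among all genes tested, 27.5% were called down at P14 against P1, and 28.5% down and 27.5% up at P56 against P14. Chaf1b, a subunit of the chromatin assembly factor CAF-1, had 3.91 ± 0.423 CPM at P1, 0.512 ± 0.168 CPM at P14 and 0.0451 ± 0.0453 CPM at P56. Asf1b, which hands H3 and H4 to that factor, had 3.52 ± 0.0443 CPM at P1, 0.448 ± 0.124 CPM at P14 and 0.514 ± 0.0769 CPM at P56. Of the 14 other histone chaperones measured, 10 were lower and 2 higher at P56 against P1, with a median of −0.35. In that comparison 31.7% of all genes were called down and 30.9% up. Hira, which deposits the H3.3 variant, stood at 5.34 ± 0.419 CPM at P56 against 6.92 ± 0.821 CPM at P1, and Ubn2, a partner of Hira, rose to 364 ± 16.5 CPM at P56, against 283 ± 8.29 CPM at P1.

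Replacement histones encoded outside the clusters also fell for the most part. Of 10 measured, 8 fell and 1 rose at P14 against P1, 5 fell and 2 rose at P56 against P14, and 8 fell and 1 rose at P56 against P1 (median −1.22). Across all genes tested, 27.5, 28.5 and 31.7% were called down in these comparisons, and 28.4, 27.5 and 30.9% up. H3f3a and H3f3b, which encode H3.3, stood at 19.8 ± 2.20 and 6.05 ± 1.14 CPM at P56, against 39.1 ± 2.11 and 16.3 ± 1.69 CPM at P1. H2afv, an H2A.Z gene, was lowest at P14, as the summed histone CPM was. This gene had 17.2 ± 1.70 CPM at P1, 11.7 ± 0.692 CPM at P14 and 17.1 ± 1.05 CPM at P56, and it rose after P14 (0.54 ± 0.10, adjusted p = 0.00104). The exception was Cenpa, the H3 variant of centromeres, at 52.5 ± 5.00 CPM at P56 against 22.3 ± 0.314 CPM at P1, a rise of 1.23 ± 0.13 on the log2 scale (adjusted p = 2.51e-05).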

How the data were processed

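Whole-number counts for each gene in 9 libraries were deposited by the authors. The submitters' processing notes name STAR 2.4.0g1 and featureCounts 1.4.2 as well as bcl2fastq 2.17.1.14 and the build GRCm38; strand, feature type and the handling of reads that fit several genes are not given in the sources used here. The smallest mean count in the table was 10, so weakly counted genes had been removed earlier and absent histone genes were not analysed here. Counts were fitted with edgeR 4.0.16 (R 4.3.3; filterByExpr, which removed 7 genes, TMM, glmQLFit on age over 9 libraries), with Benjamini-Hochberg adjustment over 15817 genes at 0.05. CPM used TMM-scaled totals, and SE is the log2 change over the root of F. DESeq2 1.42.0, RLE size factors, no filter, a replicate block, a marker score and leaving out each library were alternatives. The script was tested on simulated data. Pairs of libraries of an age differed beyond counting error (chi-square per degree of freedom 5.48 to 101). Identifiers matched GENCODE M21 for 33 histone genes and a symbol for 1. Promoters came from RefSeq. All histone genes could be named. Library values were due for the 4 largest falls and rises per comparison, genes past no threshold where they were 6 or fewer and the highest per kilobase in each class. From other lists up to 4 genes per direction could be named. Members and lists were chosen with earlier results of these data known.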

Additional observations from a re-analysis of the deposited data

How the results depend on the processing

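Of 47 age changes of named histone genes past the threshold, 35 stayed past it with the same sign in every alternative and 12 did not. With the marker score of other cell types in the fit, the median log2 change was −2.73 at P14 against P1, 0.426 at P56 against P14 (its sign turned), −2.05 at P56 against P1 and 3.2 for the later interval minus the earlier; 0 genes were called down at P56 against P14, and Hist2h2be (−0.12) and Hist1h1e (0.458) turned sign in that comparison. The score is highest at P14, so age and score overlap in that fit, and the cause was not tested. Leaving out each library in turn gave medians of −2.24 to −1.73 at P14 against P1, −0.766 to −0.227 at P56 against P14, −2.48 to −2.01 at P56 against P1 and 0.99 to 1.78 for the later interval minus the earlier. Genes called down were 27 to 31, 8 to 11 and 25 to 27 in the 3 comparisons, genes called up at P56 against P14 were 2 to 4, and the difference between the intervals was called up for 7 to 14 and down for 0 to 2 genes. The summed level at P56 was 30.1 CPM with unscaled library totals against 32.6 CPM. With 100-base windows 6 genes had under 50% unique sequence. RLE size factors and the missing filter moved no count by over 1.5 times.

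Same-numbered libraries of different ages correlated at −0.219 to 0.493 in their deviations (2 of 9 pairs over 0.1), so the numbers were not taken to pair the samples. The fit with a replicate block called 29, 10 and 26 genes down and 0, 3 and 2 up in the 3 comparisons.

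Precision is limited by the low counts of these genes at P14 and at P56, where 18 of 34 genes averaged under 10 counts at each age.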
